A study of Rattus norvegicus with 8 samples.

Results

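The tissue described here is the normal ventral prostate of male F344 rats at 6 weeks of age, which served as the common reference on every array of a study of telmisartan in TRAP rats. Its members are the 8 Cy3 (green) channels of the 8 two-colour arrays, out of 16 channels in all. The members were chosen by the label of the channel and not by any measured value. This part of the study and the gene lists below were chosen with earlier results of these data known, so counts over a list are descriptions. The other 8 channels, read in Cy5 (red), held ventral prostate of heterozygous male TRAP rats of the SD strain at 15 weeks. Of these rats 4, numbered 102, 103, 104 and 106, were controls on basal diet and tap water. The remaining rats, numbered 302, 303, 305 and 306, received telmisartan in their drinking water from 3 weeks of age, for 12 weeks, at a daily 10 mg/kg. The drug blocks the type 1 receptor of angiotensin II. The dose is the one the series text ties to these arrays, since a sample label names both 2 and 10 mg/kg. TRAP rats carry the SV40 T antigen under the promoter of probasin, a gene of the prostate epithelium, and develop prostate adenocarcinoma. The reference rats carried no transgene and received no drug according to the labels. Whether the reference was 1 pool of RNA or came from separate animals is not stated in those labels, so the 8 channels were treated as repeats of a reference and not as separate animals. Strain, age, transgene and dye all differ between the channels, and dyes were never swapped.

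The rat ventral prostate is an exocrine gland. Its luminal epithelial cells depend on androgens and fill the ducts with a few abundant secreted proteins, above all prostatein, a steroid-binding protein built of secretoglobin chains. Probasin, spermine-binding protein, tissue kallikreins and beta-microseminoprotein are further secreted products, and the gland is known for its large output of polyamines. A basal layer of epithelium, smooth muscle, fibroblasts, vessels and nerves surrounds these cells.

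The probes that report the 4 marker genes of the gland and the kallikreins are shown because the results on the brightest spots rest on them. They are 60-base oligonucleotides printed on the array, written here from 5′ to 3′ as deposited. Capitals mark the longest run that a kallikrein probe shares with its partner, of 33 bases for Klk1c9 and Klk1c2 and of 19 bases for Klk1c8 and Klk1.
Sbp: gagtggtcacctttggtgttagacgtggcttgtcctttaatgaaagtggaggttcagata
Andpro: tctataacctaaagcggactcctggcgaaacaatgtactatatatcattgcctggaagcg
Pbsn: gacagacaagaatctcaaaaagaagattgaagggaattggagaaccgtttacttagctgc
Msmb: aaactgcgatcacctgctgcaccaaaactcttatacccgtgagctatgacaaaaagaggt
Klk1c9: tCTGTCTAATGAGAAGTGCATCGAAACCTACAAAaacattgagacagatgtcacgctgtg
Klk1c2: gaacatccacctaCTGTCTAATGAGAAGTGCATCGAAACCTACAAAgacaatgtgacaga
Klk1c8: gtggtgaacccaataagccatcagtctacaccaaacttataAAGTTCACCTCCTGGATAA
Klk1: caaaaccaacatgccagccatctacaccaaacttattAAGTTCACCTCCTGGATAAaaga
At the best ungapped alignment the Klk1c9 and Klk1c2 probes were identical at 44 of 48 overlapping bases, and those of Klk1c8 and Klk1 at 47 of 56. Between the pairs the longest shared run was 5 bases. The signal of a kallikrein spot may therefore hold RNA of a near-identical paralog, and the levels of these genes are uncertain to that extent.

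The promoters of Pbsn and Msmb, both markers of the gland, are shown for their androgen half-sites. Probasin has long served as a model androgen-responsive promoter and is the one that drives the TRAP transgene. The windows are the 250 bases before the annotated gene start, from RefSeq on GRCr8, on the strand of the gene. Capitals mark TGTTCT, the half-site of the androgen response element, and TATAAA, the TATA box, both searched on both strands.
Pbsn, chrX:45807984-45808233, minus strand: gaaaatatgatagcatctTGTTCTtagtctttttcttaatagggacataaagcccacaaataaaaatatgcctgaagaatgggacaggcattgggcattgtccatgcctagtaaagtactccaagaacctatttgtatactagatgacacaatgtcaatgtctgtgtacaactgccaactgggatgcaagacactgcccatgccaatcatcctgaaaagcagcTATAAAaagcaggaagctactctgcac
Msmb, chr16:7372569-7372818, plus strand: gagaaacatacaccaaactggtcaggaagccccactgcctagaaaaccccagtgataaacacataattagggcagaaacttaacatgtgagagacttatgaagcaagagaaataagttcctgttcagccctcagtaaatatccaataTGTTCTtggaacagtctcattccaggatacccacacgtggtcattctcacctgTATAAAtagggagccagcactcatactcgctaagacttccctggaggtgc
In Pbsn the half-site began 232 bases and the TATA box 27 bases before the start. For Msmb the distances were 103 and 50 bases. Promoter windows were found for 12 of 15 secretory genes sought, and 3 of the 12 held the half-site, the third being Scgb2a1 at 116 bases. Of all 33469 windows of this length in the table, 17.5% held the half-site and 12.9% held TATAAA. These matches describe letters in a window only.

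Cy3 level means here the mean spot intensity less the median local background, scaled so that every array has the same 75th percentile over gene spots. Of the gene spots, 48.2% to 52.6% were marked well above background in Cy3 on each array, against 59.2% to 76.8% in Cy5. No Cy3 gene spot was saturated. Negative control spots still read a median of 78.3 units in Cy3 at this scale, so levels of about that size lie at the reading of the negative controls. On the array of Telmisartan 306, 69 genes lay more than 2-fold below their median of the 8 arrays, against 4 at most on any other array. All 69 fell within 1 area at the edge of the grid, whose borders were drawn from those spots and which held 950 of the genes compared. In Cy5 the same spots were more than 2-fold below their median for 41 of the 43 that had a value. The position of an array on its slide and the group of the TRAP rat cannot be told apart, because control rats held positions 3 and 4 and treated rats positions 1 and 2 on both slides.

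All 4 markers of the ventral prostate were detected on 8 of 8 arrays and lay among the brightest spots. Of the 15462 genes with a symbol, 8876 were well above background on all 8 arrays, which is 57.4%. A further 5452 genes, or 35.3%, were at background on all 8, and 7.33% passed on some arrays only. In Cy5, 65.7% of the genes were well above background on all 8. Sbp, the spermine-binding protein, had the brightest spot of the array at a median of 364403 units, with a lowest of 353578 and a highest of 414407. The highest value came from the array of Control 102 and stood apart from the other 7, which ended at 377498. Andpro, an androgen-regulated protein of 20 kDa, followed at 346374 units (333020 to 380433). Pbsn, the lipocalin probasin, read 33972.9 units (31918 to 35924), rank 110 among genes with a symbol. Msmb, beta-microseminoprotein, read 33613 units (32994 to 34820), rank 112, with a coefficient of variation (CV) of 1.77% over the 8 arrays. Ranks are of spot brightness, which depends on the probe as well as on the RNA, so they do not order the transcripts. With the deposited processed signal, scaled in the same way, Sbp read 1063017 units and Andpro 1054779, so the size of a level holds for its own processing only.

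The chains of prostatein were also among the 10 brightest genes with a symbol. Scgb1d2 read 289794 units (250396 to 333475), Scgb1d4 read 274376 (254044 to 372357) and Scgb2a1 read 96478 (82418 to 104645). Reference channels beside control and treated rats overlapped for all 3 genes. The order of Scgb1d2 and Scgb1d4 turned with the processed signal, at 635694 and 764066 units. The 4 brightest probes together held a median of 2.61% of the summed signal above the negative controls, between 2.42% and 2.91% by array, and the 100 brightest held 14.8%.

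Other secreted proteins lay among and below these chains. Wfdc3, a protein with the whey acidic protein domain of protease inhibitors, read 205720 units (175179 to 296299). Prp2l1, a proline-rich protein, read 180169 units (171926 to 213878), while its 2 other probes read 6205 and 5899 units. Probes of 1 gene thus differed by far more than the arrays did. Klk1c9 read 143298 units, Klk1c2, known as tonin, 130784, and Klk1c8 112043, all serine proteases of the tissue kallikrein family. Klk1 itself read 66892 units (57841 to 74695). In all, 12 of 14 measured genes of the secretory list were well above background on 8 of 8 arrays, against 57.4% of all genes with a symbol. Spink1, a trypsin inhibitor, and Tgm4, the transglutaminase of prostatic secretion in other lobes, were not, at medians of 84.1 and 69.6 units. Dimmer members of the list were Npc2, a sterol carrier, at 1170 units, Defb1, an antimicrobial peptide, at 709, Azgp1, a zinc-binding glycoprotein, at 238, and Acp3, prostatic acid phosphatase, at 216.

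**Figure D1:**
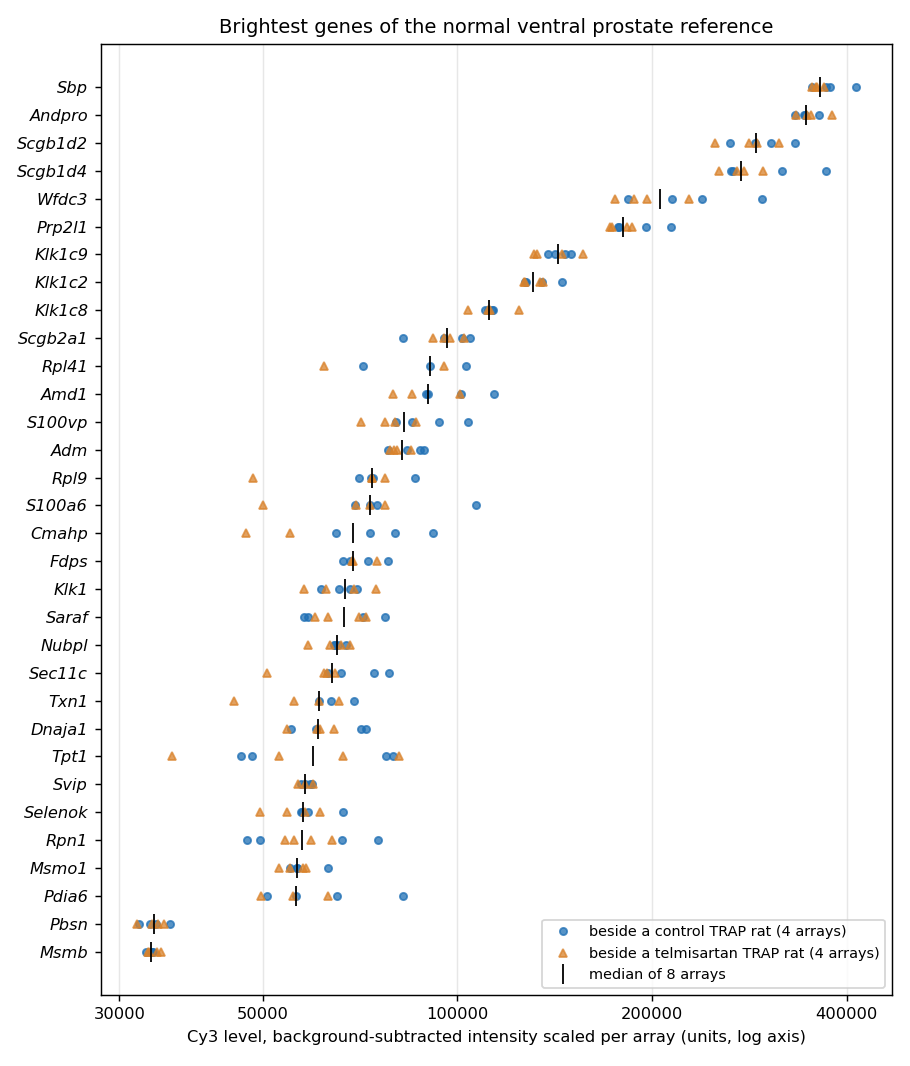
Cy3 level (horizontal, log axis, units) of the 30 genes with the brightest spots and of Pbsn and Msmb, with 1 point per array and a bar at the median. Sbp, Andpro, Scgb1d2 and Scgb1d4 lie at 250396 units or above on all 8 arrays. Of the 32 genes only Cmahp, with a level on 6 arrays, has no overlap between arrays of control and telmisartan rats. Its telmisartan levels come from rats 305 and 306 only, and 4.13% of all genes tested had no overlap.

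The remaining genes of the 30 brightest were of mixed function. Amd1, the decarboxylase that feeds spermidine and spermine synthesis, read 89944 units (79498 to 114080) on the 7 arrays with a value, and its second probe read 50482. S100vp, a calcium-binding protein named for the ventral prostate, read 82767 units (70921 to 103847). Adm, the vasodilator peptide adrenomedullin, read 81998 units (78020 to 88863). Fdps and Msmo1, enzymes of isoprenoid and sterol synthesis, read 68916 and 56476 units. Sec11c, a subunit of signal peptidase, Rpn1, of the oligosaccharyl transferase, and Pdia6, a disulfide isomerase, read 63860, 57585 and 56254 units. Rpl41 and Rpl9 of the ribosome, S100a6, Cmahp, Saraf, Nubpl, Txn1, Dnaja1, Tpt1, Svip and Selenok completed the 30 brightest, between 57787 and 90547 units. Other probes read 236 units for S100a6, 10299 for Rpn1, 6410 for Pdia6, 63764 for Fdps, and 56901 and 22515 for Tpt1. Of the 40 brightest probes, 14 carried only an accession or a predicted locus and are not named.

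The machinery of secretion was detected in full. All 27 measured genes of the secretory pathway of the endoplasmic reticulum were well above background on 8 of 8 arrays. Over all genes with a symbol the share was 57.4%. The median level of the 27 genes was 12569 units against 184 over all genes with a symbol. Ssr4, of the translocon-associated complex, read 48976 units and Hspa5, the chaperone BiP, 40982. The lowest member was Agr2, a disulfide isomerase of mucous cells, at 229 units. Of the cytosolic ribosomal proteins, 73 of 74 were detected, with a median level of 31467 units. Rpl37a, at 98.4 units, was the exception. Mitochondrial respiratory chain genes were detected for 56 of 57 measured, with a median of 13125 units, led by Cox6a1 at 48272 and Uqcrh at 41887.

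Genes of androgen action were present at moderate levels. Of 19 measured genes of the androgen axis, 17 were well above background on 8 of 8 arrays, against 57.4% of all genes with a symbol. Fkbp5, an androgen-induced co-chaperone of steroid receptors, read 24737 units (20991 to 27857). Slc45a3, known as prostein, read 13968 units and Tmprss2, a serine protease of the luminal membrane, 7791. Hoxb13, a homeobox factor of the prostate, read 2409 units (2355 to 2488). Of the enzymes that make dihydrotestosterone, Srd5a1 read 301 units (270 to 317) and passed on all 8 arrays with its brighter probe. Its second probe read 101 units and was at background on all 8. Srd5a2 read 121 units (107 to 129) and passed on 5 of 8. Steap2 was at background on all 8.

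Polyamine, citrate and zinc genes, which stand for traits that prostates are known for, were detected as groups. Among polyamine genes 9 of 10 passed, against 57.4% of all genes with a symbol. Besides Amd1 they included Oaz1, the antizyme that sends ornithine decarboxylase to the proteasome, at 19529 units, Srm, spermidine synthase, at 6262, and Odc1, ornithine decarboxylase, at 6230 (5671 to 6377). Sms, spermine synthase, read 3258 units, and Azin2 was at background. All 15 citrate genes passed, led by Acly, the ATP citrate lyase, at 37805 units and Idh2 at 21221. Zinc transport and storage genes passed for 16 of 19. They were led by Mt1, a metallothionein, at 6352 units and the importers Slc39a13 at 4150 and Slc39a7 at 4118. The second probe of Mt1 read 144 units, and that of Slc39a13 read 94.9 and was at background on all 8 arrays.

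Markers of the cell types in the gland were unevenly detected. In a bulk sample, fewer cells of a type and less RNA per cell cannot be told apart. Luminal epithelial markers passed for 14 of 15, led by Cd24 at 53536 units and the keratin Krt18 at 39430 (27820 to 56309), with Krt8 at 3412 (3179 to 3614). Elf3 passed on 7 of 8 arrays. Basal epithelial markers passed for 8 of 12, among them Krt15 at 10719 units, Tp63, the p63 transcription factor, at 1650 (1606 to 1715), Krt14 at 1437 and Krt5 at 422 (416 to 445). The second probes of Tp63 and Krt14 were at background on all 8 arrays. Neuroendocrine markers passed for 1 of 11, the exception being Eno2 at 179 units. Smooth muscle markers passed for 11 of 12, with Tpm2, Myl9, Tpm1 and Actg2 between 7003 and 27876 units, and fibroblast markers for 12 of 13, with Gsn, Col1a1, Col1a2 and Dcn between 15728 and 45668. For endothelium the count was 6 of 12 (among them Kdr at 3914 units, Egfl7, Cldn5 and Vwf) and for nerve and Schwann cells 4 of 8 (among them Pmp22 at 4605 and Sox10). Over all genes with a symbol 57.4% passed. The shares for basal epithelium, endothelium and nerve, at 66.7%, 50% and 50%, lay near that and set these lists little apart from other genes.

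Lymphocyte markers were dim, and those of macrophages and red blood cells were bright for some genes. T cell markers passed for 4 of 12, namely Cd3d, Cd3g, Zap70 and Cd8b between 162 and 647 units, and B cell markers for 0 of 5. Over the 8 arrays the Cy3 level of 3 of these 4 T cell markers correlated at 0.7 or above with the Cy5 level. Among all detected genes with a symbol that share was 14.5%. Macrophage markers passed for 12 of 13, with Lyz2 at 24643 units (13980 to 39208), Cd14 at 14730 and C1qb at 7062. Lyz2 and Cd14 varied between arrays, with CVs of 32.8% and 17.9%. Mast cell markers passed for 6 of 8, at a median of 219 units, with Cpa3 highest at 862. Red blood cell markers passed for 5 of 6, with Hba-a3 at 27231 units. The cell cycle list passed for 23 of 28, at a median of 237 units, against 57.4% and 184 units over all genes. Its highest member was Pcna, the sliding clamp of replication, at 872 units. Cdk1 read 855 and Top2a 401. Mki67, which encodes the proliferation antigen Ki-67, read 111 units (99.2 to 130) and passed on 3 of 8 arrays.

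Skeletal muscle and fat transcripts were also present. All 18 measured skeletal muscle markers passed on 8 of 8 arrays, which compares with 57.4% of all genes. Eno3, muscle enolase, read 22469 units (21605 to 23259), Actn3, an actinin of fast fibres, 21258 (19664 to 22750), Tnni2, fast troponin I, 20543 (19253 to 21689) and Myh4, a fast myosin, 14462 (13566 to 15227). The summed level of the 18 genes ran from 122708 to 129892 units over the 8 arrays. Adipocyte markers passed for 9 of 11, with Cfd at 17146 units, Adipoq, adiponectin, at 3694, Fabp4 at 2907 and Retn at 2686. Their summed level ran from 28378 to 29991 units. The adipocyte markers Plin1 and Lep were at background.

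Transcripts named for other male accessory glands and for distant organs were found for a few genes. Of 13 measured genes of the seminal vesicle, other glands and epididymis, 6 passed, or 46.2%, against 57.4% of all genes with a symbol. Semg1, a semenogelin of the copulatory plug, read 27328 units (25133 to 28388) and Svs4, a seminal vesicle secretory protein, 15561 (14815 to 16746), whereas Adam7, Svs3b, Svs6 and Svs3a lay between 132 and 265 units. Svs5 and Svs1 were at background on all 8 arrays. Of 24 genes of unrelated organs 3 passed, Myh6, the cardiac alpha myosin, at 2193 units, Pomc, the pituitary hormone precursor, at 1160 and Ins1 at 178. Another 5 of the list passed on some arrays, Alb, the serum albumin of liver, on 7, and 16 were at background on all 8.

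The receptor that telmisartan blocks was measurable in the reference. Agtr1a, the rat type 1a angiotensin II receptor, read 1423 units (1362 to 1477) with its brighter probe and 282 with its second. Agtr1b, Agtr2 and Mas1 were at background on all 8 arrays, between 75.5 and 89.3 units. In all, 7 of 11 genes of the renin-angiotensin system passed, or 63.6%, which is near the 57.4% of all genes with a symbol. Besides Agtr1a they included Atp6ap2, the prorenin receptor, at 1832 units and Agt, angiotensinogen, at 438 (428 to 445). Also among them were Ace at 231, Enpep at 188 and Lnpep at 179, each by its brightest probe. The second probes of Ace and Lnpep, at 110 and 96.4 units, were at background on all 8 arrays. Other probes of Enpep read 165 units, detected on 8 of 8 arrays, and 91.7 units, at background on all 8.

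**Figure D2:**
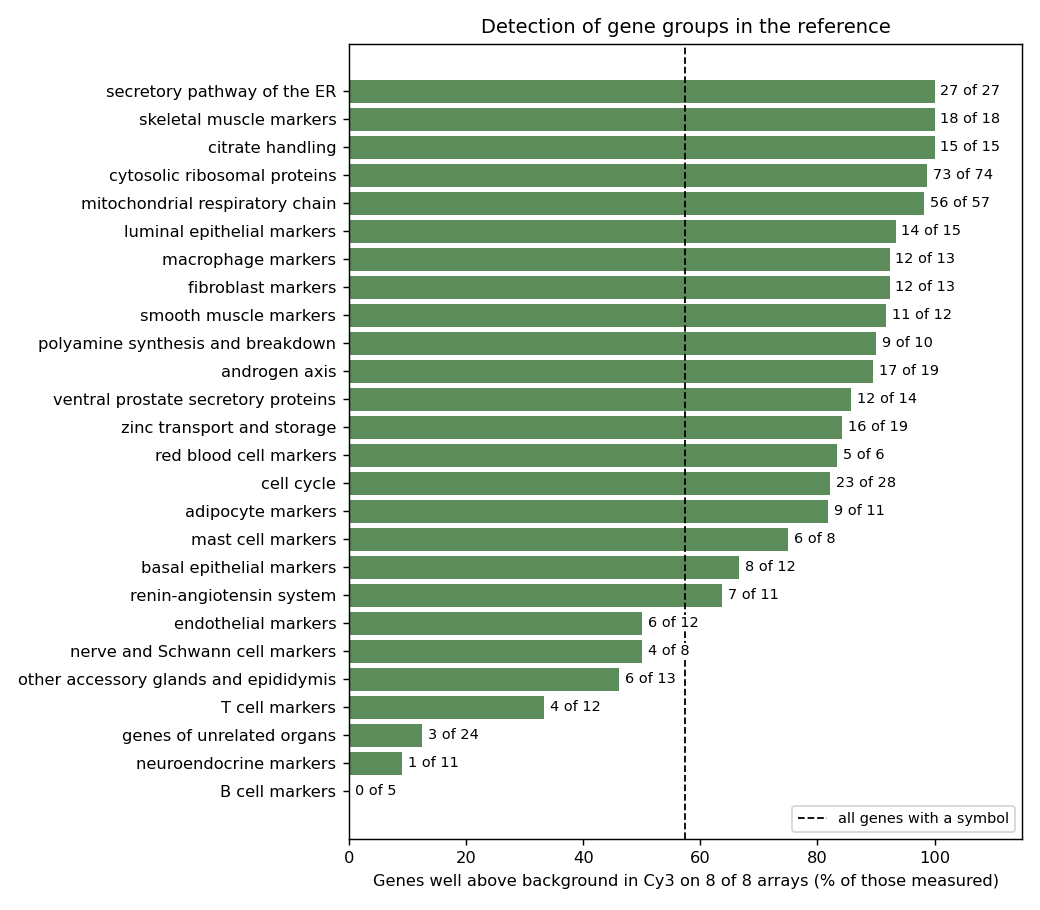
Share of the measured genes of each list that were well above background in Cy3 on 8 of 8 arrays, with the counts written beside the bars and the share over all genes with a symbol, 57.4%, as a dashed line. The secretory pathway, citrate and skeletal muscle lists reach 100%, and the B cell list has 0 of 5.

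The reference was then set against the TRAP prostate on the same arrays, using the 4 control rats. Values are log2 ratios of Cy3 over Cy5 after loess within each array, mean ± SD over the 4 arrays, and are given as a description, with no test, for the reasons given at the start. Ratios were also taken from plain background-subtracted intensities centred on the median, with neither loess nor the normexp correction used before it. That moved 142 of 190 ratios of named genes by more than their SD and turned the sign of 16. The shifts ran from -0.575 to 3.28 with a median of -0.32. The 13 largest shifts upward belonged to genes at background in Cy5 on all 8 arrays, for which bounds are given further on. Andpro was higher in the reference by 9.15 ± 0.68, Scgb1d2 by 7.02 ± 0.43, Msmb by 6.56 ± 0.26 and Klk1 by 6.10 ± 0.19. For Scgb2a1, Scgb1d4 and Sbp the ratios were 4.91 ± 0.29, 4.82 ± 0.30 and 4.21 ± 0.09. The second probe of Scgb2a1, at 278 units and detected on 8 of 8 arrays, gave the opposite sign, -3.54 ± 0.23. Pbsn was higher by 2.43 ± 0.41. By array the Andpro ratio was 9.33, 9.80 and 9.26 for rats 102, 104 and 106, and rat 103 gave the lowest of the 4. Of the 14 secretory genes, 8 were more than 2-fold higher in the reference on all 4 arrays and 1, Azgp1 at -3.92 ± 0.26, was more than 2-fold lower, with a list median of 3.32. Over the 15461 genes with a ratio, 3.51% were more than 2-fold higher on all 4 arrays, 5.23% were more than 2-fold lower, and the median was -0.02. Among the 8875 of these genes detected in Cy3 on 8 of 8 arrays, the shares were 6.1% and 7.34%.

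Skeletal muscle genes stood higher in the reference beside the secretory genes. On all 4 control arrays 17 of 18 were more than 2-fold higher, with a median of 4.13. Over all genes with a ratio the share more than 2-fold higher was 3.51%. Actn3 was at 5.77 ± 0.03 and Ckm, muscle creatine kinase, at 5.28 ± 0.04. Adipocyte markers were more than 2-fold higher for 8 of 11, with Adipoq at 6.39 ± 0.12 and Retn at 4.53 ± 0.10. Semg1 was at 6.83 ± 0.11 and Svs4 at 4.50 ± 0.21. Smooth muscle and fibroblast lists had medians of 0.77 and 0.87, with 3 members each more than 2-fold higher on all 4 arrays, and the fibroblast gene Sfrp2 was more than 2-fold lower at -2.02 ± 0.24. The part that the muscle and fat transcripts have in the other differences between the channels was not tested.

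Cell cycle genes lay on the other side. Of 28 cell cycle genes 26 were more than 2-fold lower in the reference on all 4 arrays, with a median of -3.10, Cdk1 at -4.50 ± 0.47 and Mki67 at -3.19 ± 0.26. Macrophage markers had a median of -1.83 with 4 of 13 past 2-fold on every array. T cell markers had a median of -1.59 with 1 of 12. Over all genes with a ratio, 5.23% were more than 2-fold lower on all 4 arrays, and the T cell count lay near that share. B cell and mast cell markers had medians of -0.69 and 0.32, with none past 2-fold on every array. Luminal epithelial markers had a median of -0.44, and 2 of 15 were more than 2-fold lower. The epithelial keratin Krt8 changed sign between the loess ratio and the median-centred ratio without normexp or loess, at 0.21 ± 0.26 and -0.11. Tp63 was higher by 2.02 ± 0.57, and Srd5a1 was at -1.03 ± 0.19. Polyamine genes divided, with Sms at 1.84 ± 0.07 and Amd1 at 1.61 ± 0.22 against Sat1, the acetyltransferase of polyamine breakdown, at -2.06 ± 0.18. Zinc genes divided as well, Mt3, a metallothionein, being at 4.21 ± 0.20 and Slc39a8, an importer, at -3.69 ± 0.34. Agtr1a was at 0.82 ± 0.08.

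**Figure D3:**
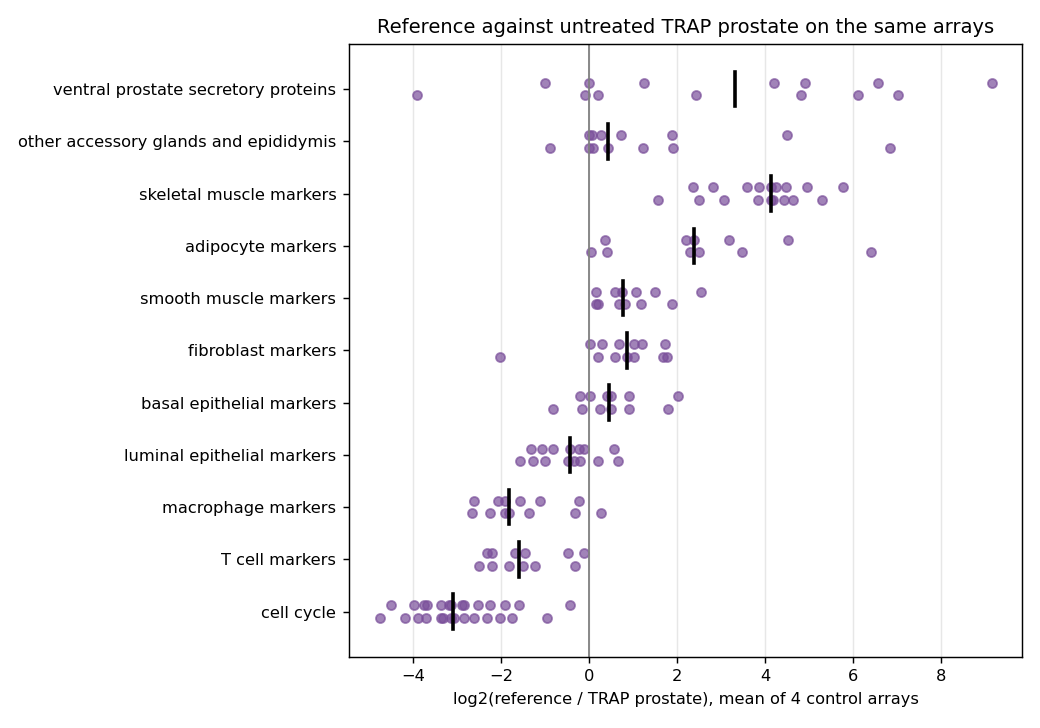
Each point is 1 gene at its mean log2 ratio of reference over TRAP prostate on the 4 control arrays, grouped by list, with a bar at the list median. Skeletal muscle markers centre on 4.13, secretory proteins on 3.32 and cell cycle genes on -3.10.

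Only a handful of genes were detected in the reference and never in TRAP prostate. By flags, 13 of 15462 genes, or 0.0841%, were well above background in Cy3 on 8 of 8 arrays and in Cy5 on 0 of 8. The opposite pattern held for 607 genes, or 3.93%. These 2 counts are not on equal terms, since 57.4% of the genes passed on 8 of 8 arrays in Cy3 and 65.7% in Cy5. Before scaling, negative controls read a median of 80.5 units in Cy3 and 23.4 in Cy5. Serpina1f, a serpin of the epididymis, led at 625 units (592 to 654) and was at least 15.0-fold higher than the floor of detection in Cy5. Bounds of this kind compare the 2 channels of arrays without dye swaps and are open to dye bias. Muscle genes followed with Myot, a protein of the Z disc, at 305 units and at least 6.36-fold, Xirp2 at 228 and at least 4.16-fold, and Myog, the transcription factor myogenin, at 132 and at least 1.94-fold. Rbp7 and Aqp7, both known from fat, had bounds of 4.58 and 3.21, and the seminal vesicle genes Svs6 and Svs3a of 2.85 and 1.99. The rest were Agbl4, Fbxo36, Zfp352 and the odorant receptor genes Or1j14 and Or52ab2b, with bounds between 2.04 and 4.04. With the flag for a positive and significant signal the count was 5, and with up to 1 array allowed in Cy5 it was 22.

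Repeats of the reference agreed closely. Over 15851 genes that were well above background with a level on every array, the log2 levels of a pair of arrays had a correlation across genes of 0.995 to 0.999 within a slide and at 0.995 to 0.998 between slides. Genes are not independent replicates, so these values are descriptions. The median CV was 4.48%, and 94.3% of the genes had a CV under 10%. Only 162 genes, or 1.02%, had a CV over 20%. The spread was lowest at moderate levels, with a median CV of 3.69% for genes between 1000 and 3000 units, and highest for the 144 genes above 30000 units, at 10.4%. Cytosolic ribosomal proteins followed that pattern with a median CV of 13.6%, and skeletal muscle markers had 3.43%. Repeated spots of 1 probe within an array had a median CV of 9.26% over 157 probes.

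Comparing the slides, 4 arrays each, limma called 9 of 15851 genes at a Benjamini-Hochberg adjusted p under 0.05, all 9 higher on slide 2, or 0.0568%, and none lower, or 0.0%. At an unadjusted p under 0.05 there were 1258. Of the 9, 4 carry a symbol. Dcun1d4, a factor of cullin neddylation, read 504, 504, 524 and 575 units on slide 1 and 732, 740, 792 and 808 on slide 2. The slides did not overlap, and the difference was 0.54 ± 0.05 on the log2 scale (SE, adjusted p = 0.00449). The second probe of Dcun1d4, detected on 8 of 8 arrays, spanned 161 to 187 units over both slides, so the call rests on 1 of 2 probes. Rgr, an opsin-like receptor, differed by 0.49 ± 0.05 (adjusted p = 0.00449), Or2v2c, an odorant receptor gene, by 0.42 ± 0.05 (adjusted p = 0.00887) and Svs3b by 0.30 ± 0.04 (adjusted p = 0.015). Malt1 and Cdh22 came next without passing. The smallest p-values downward, none of which passed, were those of Aff2, RT1-CE12, RT1-CE3, Tax1bp1, C13h1orf21 and Ripply3, at differences between -0.67 and -0.20. Leaving out the array of Telmisartan 303 gave 64 calls, of which 50 were lower on slide 2, and leaving out Control 102 gave 20. The slides did not overlap for 4.47% of the genes tested. The scan date in the file headers also differed between the slides, so slide and scan cannot be told apart.

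The reference beside treated rats was then compared with the reference beside control rats, which asks whether the common channel stayed the same across the study's own comparison. By limma, none of 15851 genes passed in either direction, 0.0% each way, with 1136 genes at an unadjusted p under 0.05 and a smallest adjusted p of 0.68. The groups did not overlap for 4.13% of the genes. The smallest p-values upward belonged to Tprkb, Adprs, Dnajc24, Pspc1, Cbll1 and Rbm38, at differences of 0.14 to 0.22, and downward to Aplp1, Zfp36l3, Tmeff2, Aldh16a1, Dkk3 and Asah2, at -0.30 to -0.14. Aplp1, an amyloid precursor-like protein, read 165 to 176 units beside control rats and 125 to 146 beside treated rats. A miss of the threshold does not show that the levels were equal, and leaving out Telmisartan 305 gave 1 call.

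**Figure D4:**
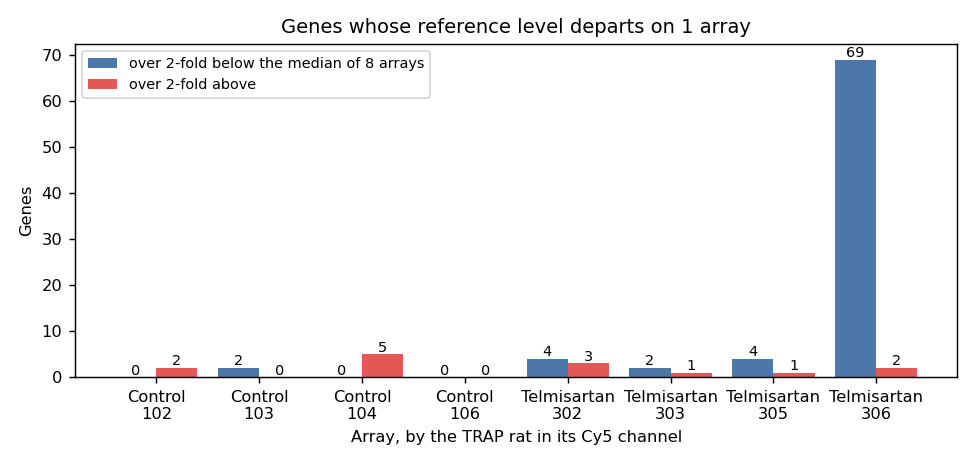
Number of genes, of 15851, whose Cy3 level lay more than 2-fold below (blue) or above (red) the median of the 8 arrays, by array. The array of Telmisartan 306 has 69 genes below, and the other arrays have 0 to 4.

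The 12 genes with the widest spread on the log2 scale fell into 2 kinds. For 9 of them, namely Atg3, Upk3a, Rtca, Pomp, Selenos, Mmrn2, Aldh7a1, Cdc5l and Tcf19, the array of Telmisartan 306 alone was low, and all lay in the dim area of that array. Cdc5l, a splicing factor, read 122 units there and 1113 to 1145 on the other 7. Npy, Ccl3 and Col4a1 varied over several arrays. Npy, which encodes neuropeptide Y, read 297, 303, 320 and 343 units on 4 arrays, 634 and 666 on 2 more, 1353 on that of Control 104 and 2385 on that of Control 102. Ccl3, a chemokine, had a lowest level of 194 units, a median of 976 and a highest of 1938. The reference level of both genes followed the Cy5 level of the rat on the same array.

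That relation was tested for the 7 of the 12 genes with a value in both channels of all 8 arrays, by exact permutation. For Npy Pearson's r was 1.00 (exact two-sided p = 2.48e-05, adjusted over the 7 genes 8.68e-05) and Spearman's rho was 1.00 (p = 4.96e-05, adjusted 0.000116). These are the smallest p-values that the permutations can give. Without the 2 arrays farthest from the median Cy5 level r was 0.997, within slide 1 it was 1.00 and within slide 2 it was 0.998. The fitted line gave 2.96 Cy3 units for each 100 Cy5 units, each channel being on its own scale. Ccl3 had an r of 0.985 (exact p = 2.48e-05), a rho of 1.00 and an r of 0.982 without the 2 farthest arrays, with 2.51 units per 100. For Col4a1, collagen IV of basement membranes, r was 0.952 (exact p = 0.000124, adjusted 0.000289) and 0.943 without the 2 farthest. Its brighter probe spanned 138 to 13246 units, the lowest in the dim area of Telmisartan 306, while the second probe spanned 1821 to 2042 with an r of -0.05. Of the other 4, Cdc5l had an r of 0.977 and 0.806 without the 2 farthest arrays. Upk3a, Selenos and Mmrn2 had r of 0.444, 0.852 and 0.734, and 0.729, 0.206 and -0.929 without them. The array of Telmisartan 306 was among the 2 left out for Cdc5l, Selenos and Mmrn2, and the relation in Selenos and Mmrn2 rests on those 2 arrays.

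**Figure D5:**
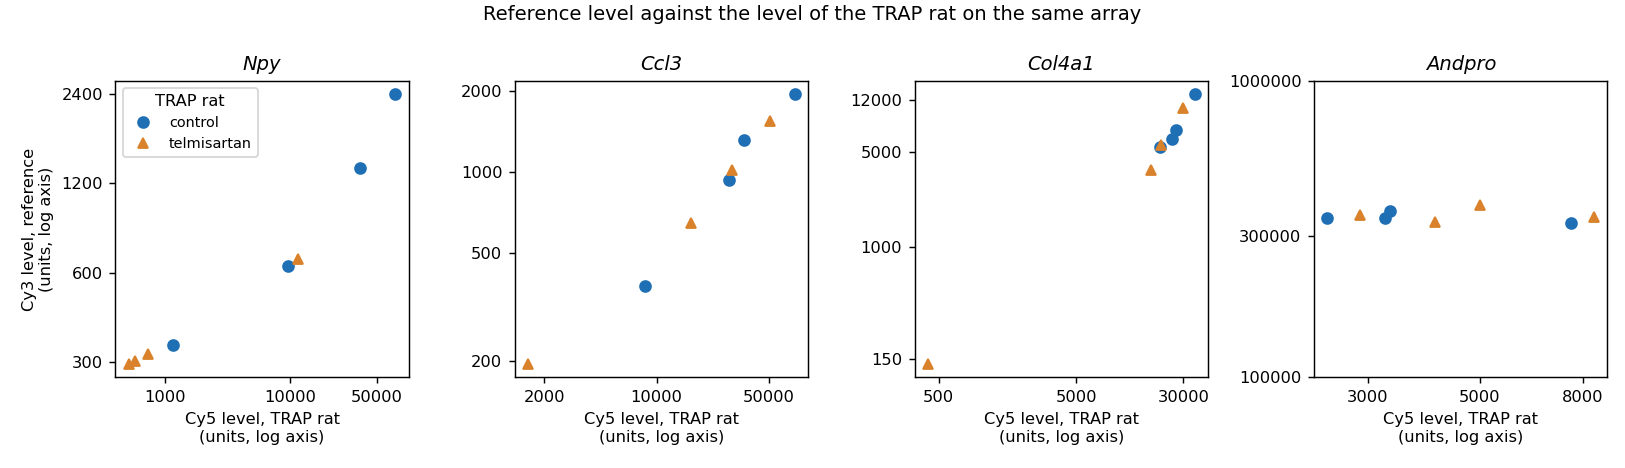
Cy3 level of the reference against the Cy5 level of the TRAP rat on the same array (both log axes, units), 1 point per array, for Npy, Ccl3, Col4a1 and Andpro. Npy and Ccl3 climb together in both channels, while Andpro stays between 333020 and 380433 units in Cy3.

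Across all genes the tie between the channels was weaker and of both signs. The deviation of each gene from its median correlated across genes at 0.230 to 0.568 between the channels of the same array, and at -0.15 to 0.187 between channels of different arrays. Both channels of a spot share its printing, hybridization and location. Over the 8 arrays the median r per gene was 0.30, and 14.5% of 8693 detected genes with a symbol had an r of 0.7 or above and 1.67% one of -0.7 or below. Secretory genes had a median r of -0.02, macrophage markers 0.55, T cell markers 0.72 and cell cycle genes 0.42. An r of 0.7 or above was found for 2 of 12, 5 of 11, 3 of 4 and 8 of 23 of them. Whether the Cy5 channel adds to dim Cy3 levels was not tested. Azgp1, at 179 to 336 units in Cy3, had an r of 0.957 with its Cy5 level. Lyz2, at 13980 to 39208 units, had an r of -0.89. Both are descriptions over 8 arrays.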

How the data were processed

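Images were quantified by Agilent Feature Extraction 9.1, per the file headers. For every spot the deposited scanner files give a mean intensity and a local background (median) per channel, uncorrected, with flags. A processed Cy3 intensity in the same deposited files was used as an alternative. The RNA was prepared with ISOGEN and linearly amplified, per the labels' protocols. The members and lists were chosen with earlier results of these data known.

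From these, the Cy3 level was the mean less the local background, scaled to a common 75th percentile, with control spots (1639 of 45018) and outlier-flagged spots left out and 183 probes so lacking a level on at least 1 array. Detection used the well-above-background flag. The brightest probe stood for a gene. Names came from RefSeq (GRCr8): 10735 probes matched by accession, 5571 by symbol, 3729 by an older symbol, and 20977 of 41012 kept the file's name. Levels were floored at 10 units, put on the log2 scale and tested with lmFit and eBayes of limma 3.58.1 in R 4.3.3, two-sided, all genes tested being adjusted together by Benjamini-Hochberg, on genes well above background on 8 of 8 arrays; the fit was tested on simulated data. The p-values measure the spread between hybridizations of the reference. Ratios used normexp with an offset of 50 and loess within arrays. Detection bounds used loess and Aquantile normalization, with means over the 8 arrays. Named were the 30 brightest genes with a symbol, the 4 markers, up to 4 members of each list with the members against the rest of an absent list, the 12 most variable genes, 6 genes per direction and test, up to 15 genes detected in the reference only, and a fixed set of androgen, polyamine, keratin and angiotensin genes. Further list members were named after their values were seen. Some genes that the rule names are not reported here. Precision is limited by the number of arrays.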

Additional observations from a re-analysis of the deposited data

Results flagged for a closer look

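Of 177 named genes with a level on all 8 arrays, 18 had 1 array far from the other 7 by Dixon's ratio, or 10.2%. Of these, 9 were among the 12 genes named for their wide spread, and without those 12 the count was 9 of 165, or 5.45%, where chance gives about 1 in 20. Of the 6 measures per array, 1 was far off, the 69 genes more than 2-fold below their median on the array of Telmisartan 306, against 0 to 4 elsewhere.

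On that array 11 genes stood apart. Low were Atg3 at 279 units (others 6234 to 7050), Upk3a at 178 (3052 to 3399), Rtca at 338 (5031 to 5711), Pomp at 1859 (16382 to 25141), Selenos at 1165 (12392 to 13727), Mmrn2 at 104 (1086 to 1158), Aldh7a1 at 1743 (13826 to 20838), Cdc5l at 122 (1113 to 1145) and Tcf19 at 386 (2753 to 3858). High were Klk1c8 at 124655 (103924 to 113343) and Cldn5 at 497 (437 to 465).

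On the array of Control 102, Sbp was high at 414407 units (353578 to 377498), Cd24 at 89616 (42032 to 63979) and Tyrobp at 4497 (3908 to 4158). On that of Telmisartan 303, Rpl9 was low at 48228 units (70442 to 85967) and Rps3a at 31386 (51435 to 67571). Adam7 was low at 244 units on that of Telmisartan 305 (261 to 269), and Myog at 119 on that of Control 106 (128 to 135). The cause was not tested.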

How the results depend on the processing

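The count of genes detected on 8 of 8 arrays stayed within 1.5 times under every alternative, from 8876 to 10440, and from 8877 to 8948 with 1 array left out. Genes in the reference alone numbered 5 with the positive and significant flag and 22 with up to 1 array allowed in Cy5, against 13, and 13 to 18 with 1 array left out. The slide test called 5 genes with normexp, 14 with the processed signal and 2 with no filter on dim probes, against 9, and 6 to 64 with 1 array left out. Without scaling its 11 calls split into 6 higher and 5 lower. The comparison by partner group called 0 to 1 with 1 array left out and 0 otherwise. The median SD between repeats was 0.0647 on the log2 scale; it was 0.0993 without scaling, 0.0701 with normexp, 0.0735 with the processed signal, 0.104 with no filter and 0.0792 with negative controls subtracted, and 0.0624 to 0.0656 with 1 array left out. Subtracting negative controls, leaving out the dim area and centring ratios without normexp or loess were chosen after seeing the data. Such centring changed the sign of 16 of 190 named ratios and shifted them by -0.575 to 3.28. Of 202 named levels, the processed signal moved 195, quantile normalization 1, no scaling 2, and the mean over probes 45 of 53, each by more than the SD between arrays. The cause was not tested. No paired analysis was possible because the control and treated arrays share no replicate number, and with the slide as a block the comparison by partner group called 0 genes (limma, smallest adjusted p = 0.635, 1224 genes at an unadjusted p under 0.05).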
